A study of Sus scrofa with 20 samples.

Results

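Hippocampus arrays of 14 of 20 pigs were compared after being selected on a myelin score, namely the 7 arrays with the highest and the 7 with the lowest mean log2 value of ASPA, MOG, MAG, MOBP, UGT8 and ERMN. All 20 animals were German Landrace pigs labelled as adult, and RNA of each hippocampus was hybridised to 1 Affymetrix porcine Snowball array. The sample labels gave 10 animals a high-reactive (HR) and 10 a low-reactive (LR) coping pattern. Per the study's methods these were extremes of struggling in the backtest, a restraint test of piglets held in a supine position, and the animals also differed in haplotype at a coping quantitative trait locus. No treatment was named, nothing in the labels spoke of myelin, and no source used here gives litter, sex or hybridisation batch. The score was measured on the arrays themselves, so the 7 and 7 arrays are not groups of the study. The high-score arrays came from 4 HR and 3 LR pigs and the low-score arrays from 2 HR and 5 LR pigs, with coping pattern kept as a term in each fit that held both labels unless stated.

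Myelin is the multilayered membrane that oligodendrocytes wrap around axons, and it lets action potentials jump between the nodes of Ranvier. Its membrane is rich in cholesterol and galactolipids and is held together by a small set of abundant proteins, myelin basic protein among them. In the hippocampus the myelinated fibres run mostly in the alveus, the fimbria and the perforant path, so a piece of hippocampus can carry more or less of this white matter.

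The score chose the arrays, so its values in the 2 sets are a description without a test. The high-score arrays ran from 10.51 to 10.94 with a median of 10.61, and the low-score arrays from 9.87 to 10.19 with a median of 10.16, all as mean log2 values. The last array taken into the high-score set had a score of 10.51 and the next one outside it 10.49. At the other end the last array taken had 10.19 and the next one outside it 10.26. The cut of the high-score set therefore fell between arrays of nearly the same score.

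The 6 genes that made the score did not move together. ASPA, the aspartoacylase that frees acetate from N-acetylaspartate for lipid synthesis, lay at 8.61 to 9.71 (median 8.91) in the high-score arrays and at 7.25 to 8.02 (median 7.76) in the low-score arrays, a difference in means of 1.32 log2. UGT8, the galactosyltransferase that makes the galactolipids of myelin, lay at 10.72 to 11.53 (median 10.92) against 9.43 to 10.32 (median 10.17). ERMN, which codes for the cytoskeletal protein ermin, lay at 9.30 to 10.65 (median 9.50) against 8.15 to 9.25 (median 8.82). These 3 genes carried 40.7%, 29.3% and 28.5% of the difference in the score, and in each of them the sets did not overlap.

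MOBP at its brightest probe set followed these 3 genes with a smaller difference, while MOG and MAG did not. MOBP, a basic protein of compact myelin, lay at 11.65 to 12.18 (median 11.88) against 11.33 to 11.64 (median 11.58) and gave 10.6% of the difference. MOG, a glycoprotein of the outermost myelin layer, lay at 12.05 to 12.65 (median 12.33) against 12.18 to 12.39 (median 12.29), so that the sets overlapped and the difference was 0.07. MAG, an adhesion protein of the membrane next to the axon, ran the other way, at 9.51 to 9.98 (median 9.81) in the high-score arrays and 9.996 to 10.34 (median 10.10) in the low-score arrays. All 7 high-score arrays were below all 7 low-score arrays in MAG. Over the 20 arrays, Pearson's r of MAG was -0.71 with ASPA and -0.78 with UGT8, while r of ASPA with UGT8 was 0.94, all on arrays that share processing and background. The other 3 MOG probe sets differed by 0.63, -0.20 and -0.17, and the second UGT8 probe set by 0.98. The second MOBP probe set differed by 0.23 with overlapping sets. It had r of 0.30 with the score, beside 0.82 at the brightest one.

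**Figure D1:**
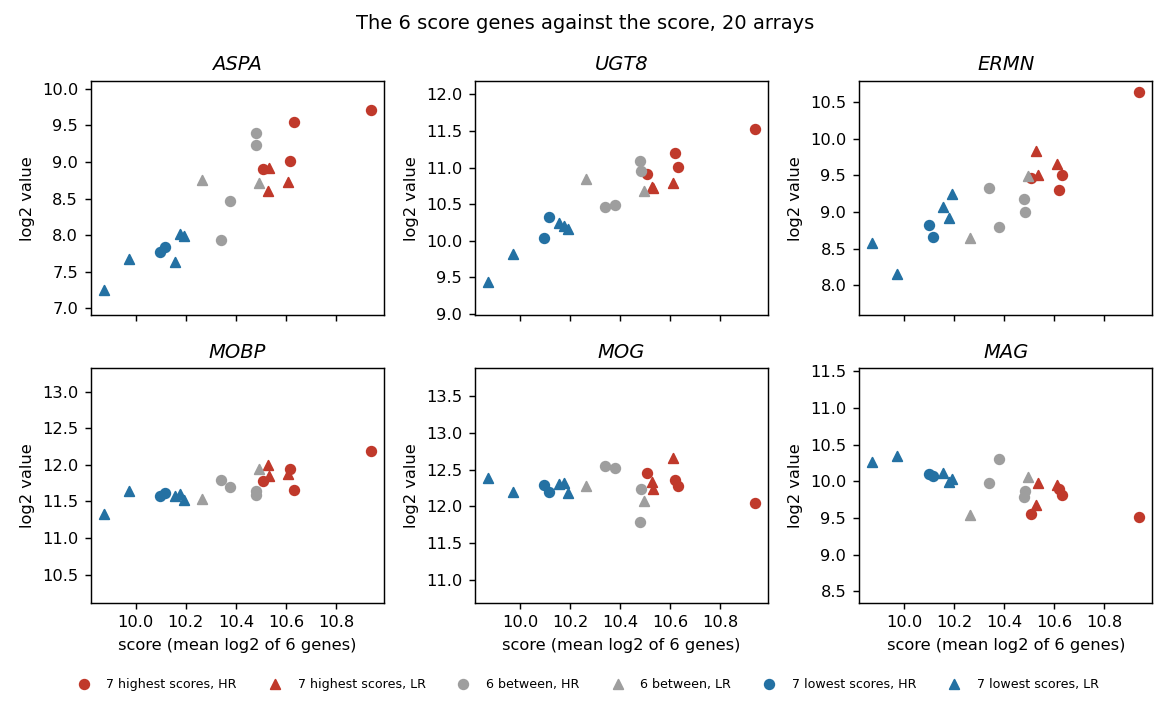
Log2 value of each score gene (y axis, the same span of log2 units in every panel) against the score (x axis, mean log2 of the 6 genes) in 20 arrays. Points are arrays, coloured by set and shaped by coping pattern; ASPA, UGT8 and ERMN climb with the score, MOBP climbs less, MOG is flat, and MAG descends, with 9.51 to 9.98 in the high-score arrays.

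A label of myelin-rich and myelin-poor arrays therefore did not hold for the genes that define it, and the sets are called high-score and low-score arrays throughout. The marker lists of the oligodendrocyte lineage described further on did not hold to it either. In whole tissue, fewer cells of a type and less RNA per cell cannot be told apart.

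Array-wide measures differed between the sets as well. The first principal component of the 20 arrays, computed without the score genes, took up 47.9% of the variance and averaged 28.8 ± 18.0 in the high-score and -30.3 ± 13.6 in the low-score arrays (SD, n = 7 each; exact permutation test, two-sided p = 0.000583, the smallest that 7 against 7 arrays can give, adjusted p = 0.00292 over 5 measures). The GC-rich background level, the mean of 33 control probe sets without a pig target whose probes hold at least 15 G or C among 25 bases, was 6.58 ± 0.15 against 6.98 ± 0.13 log2 (exact permutation adjusted p = 0.00293). The array median was 5.51 ± 0.017 against 5.54 ± 0.022 (exact permutation adjusted p = 0.0175). Sample titles carry a number that no source used here explains, and it averaged 2815 ± 93.8 against 2545 ± 251 (exact permutation adjusted p = 0.0107). The mean of 9 choroid plexus markers was 7.72 ± 0.35 against 7.95 ± 0.20 and did not pass the test (exact permutation adjusted p = 0.164).

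Over all 20 arrays the score followed the first component closely, with Pearson's r of 0.92 and Spearman's rho of 0.88, as a description without a test because the score chose the sets. Within HR arrays r was 0.94 and within LR arrays 0.89, and without the 2 arrays farthest from the median score it was 0.87. For the GC-rich background level r was -0.83 and rho -0.76, with r of -0.90 in HR, -0.72 in LR and -0.72 without the 2 farthest arrays. The score and the title number had r of 0.67 and rho of 0.58, with 0.51 in HR, 0.72 in LR and 0.56 without the 2 farthest arrays. ASPA and UGT8 had r of 0.90 and 0.93 with the first component and MAG had -0.87. The part of these measures in the gene differences was not tested, and where they enter a fit as a covariate the values are given beside the result. The score was 10.46 ± 0.25 in HR and 10.28 ± 0.25 in LR pigs (SD, n = 10 each), a difference of 0.18 that did not pass the permutation test (two-sided p = 0.128, and 0.071 to 0.241 over its alternatives), with 8 of 10 HR arrays above the LR median.

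**Figure D2:**
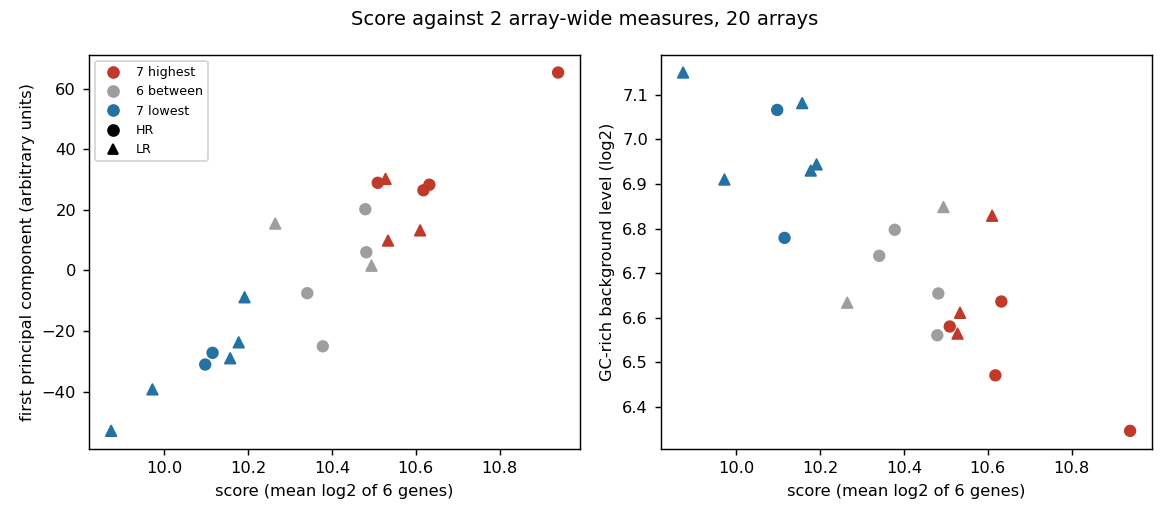
First principal component (left, arbitrary units) and GC-rich background level (right, log2) against the score (mean log2 of 6 genes) for 20 arrays, coloured by set and shaped by coping pattern. The 7 high-score arrays all have a positive component and the 7 low-score arrays a negative one, and the background level descends as the score climbs.

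Across all genes other than the score genes, most of the measured transcriptome differed between the sets. Of 23850 probe sets, 13563 passed the limma test at an adjusted p below 0.05 (56.9%), of which 6135 were higher in the high-score arrays (25.7%) and 7428 lower (31.1%). In 3936 probe sets (16.5%) the 7 and 7 arrays did not overlap. The differences that passed had a median size of 0.36 log2 and ran from -1.29 to 2.27. The median over all probe sets was -0.12 log2, and list medians are read beside that value. Taken as genes at their brightest probe set, 27.7% of 10307 genes were higher and 32.9% lower. With the first principal component or the GC-rich background level as a further covariate 0 probe sets passed (1517 and 2106 at an unadjusted p below 0.05). The component was built from these same probe sets and had r of 0.92 with the score, so its count could not test the differences. The GC-rich background level had r of -0.83 with the score, so its count could hardly tell the 2 apart. With each score gene scaled to the same variance before averaging, which kept 6 of 7 arrays in each set, 0 passed as well (9929 unadjusted).

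The 12 genes with the smallest p in the upward direction differed by 0.63 to 1.38 log2. GNA13, a G protein alpha subunit, lay at 8.15 to 9.15 (median 8.59) in the high-score arrays and at 6.59 to 7.63 (median 7.18) in the low-score arrays, a fitted difference of 1.38 ± 0.15 log2 (SE, as in all such values that follow). Its 2 other probe sets differed by 0.75 and 0.90. PROX1, the homeobox factor of dentate granule cells, lay at 6.97 to 8.15 (median 7.44) against 5.70 to 6.42 (median 6.16), a difference of 1.22 ± 0.14. Its second and brighter probe set, with a mean over all arrays of 8.39 against 6.88, differed by 0.32. WDR48, a cofactor of deubiquitinating enzymes, and PDK1, a kinase that inhibits pyruvate dehydrogenase, were higher by 1.08 ± 0.12 and 1.06 ± 0.12. The other 8 were the amino acid transporter SLC36A4 (0.92), LINS1 (0.86), the zinc finger gene ZSCAN12 (0.81), the vitamin K epoxide reductase paralogue VKORC1L1 (0.81), the transcriptional repressor DR1 (0.80), the splicing factor SMNDC1 (0.78), the nuclear pore gene NUP133 (0.68) and the inner nuclear membrane gene TOR1AIP1 (0.63). Adjusted p of the 12 was between 0.000151 and 0.000154, and none of them had overlapping sets at the probe set of smallest p. The second probe sets of PDK1, VKORC1L1, SMNDC1 and NUP133 differed by 0.52, 0.74, 0.78 and 0.46.

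The 12 genes with the smallest p in the downward direction differed by -0.66 to -0.43 log2. FLOT1, a flotillin of membrane rafts, lay at 9.15 to 9.58 (median 9.31) in the high-score arrays and at 9.79 to 10.20 (median 10.02) in the low-score arrays, a difference of -0.66 ± 0.095, and its 8 other probe sets lay between -0.56 and -0.41. CDIPT, the phosphatidylinositol synthase, differed by -0.58 ± 0.078. PLD4 and FCER1G, both active in myeloid cells, differed by -0.48 ± 0.074 and -0.43 ± 0.068. The others were the unnamed locus LOC100510930 (-0.61), TRAM2 (-0.58), the atypical protein kinase C gene PRKCZ (-0.56), the actin nucleation gene ARPC1B (-0.56), SLFNL1 (-0.48), the opioid growth factor receptor OGFR (-0.48), the diacylglycerol kinase DGKD (-0.45) and the semaphorin SEMA6B (-0.43). Adjusted p lay between 0.000245 and 0.000387, and no sets overlapped at the probe set of smallest p. The second probe sets of PRKCZ, LOC100510930, TRAM2, DGKD and SEMA6B differed by -0.25, -0.23, -0.19, -0.19 and -0.23. The other probe sets of CDIPT, ARPC1B, OGFR and FCER1G lay between -0.62 and -0.30.

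The other myelin and oligodendrocyte genes gave no common direction. Of 105 genes on 4 lists (myelin membrane proteins, myelin lipid metabolism, transcription factors, and further enzymes and signalling genes of oligodendrocytes), 83 had a named probe set and 79 passed the filter on low values. Of these, 17 were higher, 27 were lower and 35 did not pass, with a median of -0.15 beside -0.12 over all probe sets, and 10 (12.7%) did not overlap, beside 16.5% of all probe sets. These shares, 21.5% and 34.2%, stood beside 27.7% and 32.9% of all genes. Without HR replicate 1 the lists had 28 calls and without LR replicate 9 they had 29, in place of 44. Higher and lower calls were 16 and 16 without a filter on low values and 17 and 18 for 5 against 5 arrays. The count was 18 (14 higher, 4 lower) with the title number as a covariate, and 0 with the first component or the GC-rich background level. With the title number 14.8% of all probe sets were higher and 7.06% lower.

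**Figure D3:**
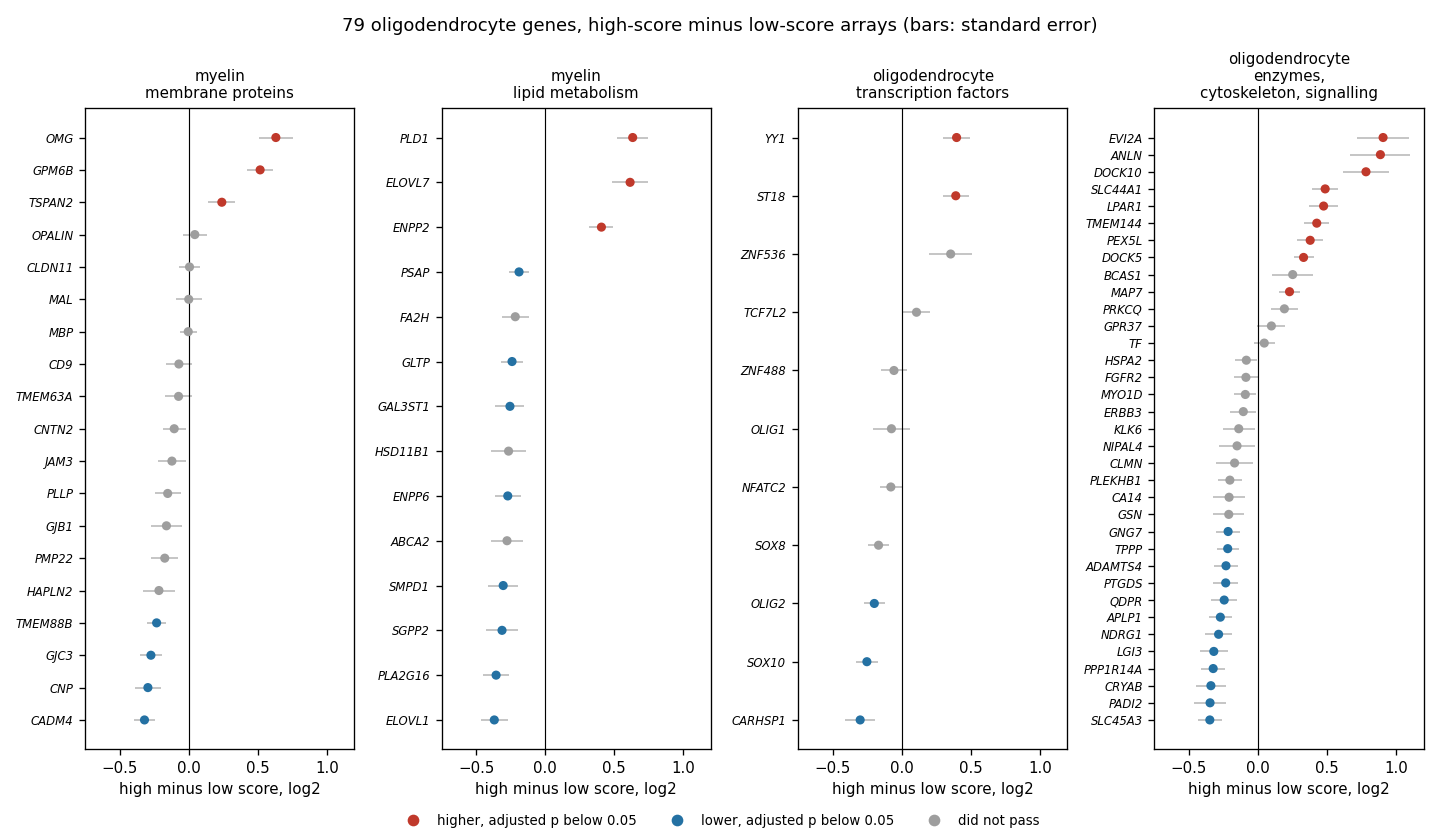
Difference between high-score and low-score arrays (x axis, log2, with bars for the standard error of the limma fit, 7 against 7 arrays) for 79 oligodendrocyte genes in 4 lists. Red and blue points passed an adjusted p of 0.05; 17 genes lie to the right, 27 to the left, and MBP, MAL and CLDN11 lie at 0.

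Myelin membrane proteins held 3 higher and 4 lower genes among 19 tested (15.8% and 21.1%, beside 27.7% and 32.9% of all genes). MBP, which seals the cytoplasmic faces of the myelin membrane and is the brightest gene of the list, lay at 13.37 to 13.55 (median 13.43) in the high-score arrays and at 13.38 to 13.49 (median 13.45) in the low-score arrays, a difference of -0.0037 ± 0.061 (adjusted p = 0.96). The sets overlapped almost fully. The 4 other MBP probe sets were dimmer and disagreed, with differences of -0.33, 0.45, 0.47 and 0.48 that all passed the test (adjusted p between 0.0102 and 0.0193). Of 3812 genes with several tested probe sets 79 were called in both directions, MBP among them.

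OMG, the oligodendrocyte myelin glycoprotein that neurons also express, lay at 10.77 to 11.39 (median 10.94) against 9.99 to 10.62 (median 10.33), with no overlap and a difference of 0.63 ± 0.12 (adjusted p = 0.00108). GPM6B, a membrane glycoprotein of neurons and glia, lay at 12.11 to 12.76 (median 12.31) against 11.47 to 11.96 (median 11.89), a difference of 0.52 ± 0.094, and its 7 other probe sets ran from 0.38 to 0.56. CADM4, an adhesion molecule at the contact of axon and glia, was lower by -0.32 ± 0.079 (adjusted p = 0.00425). TMEM88B was lower by -0.23 ± 0.070 (adjusted p = 0.0124). Chosen after their values were seen, CNP, the cyclic nucleotide phosphodiesterase of non-compact myelin, differed by -0.30 ± 0.097 (adjusted p = 0.0182), while CLDN11, the claudin of the tight junctions in myelin, and the oligodendrocyte membrane gene OPALIN differed by 0.0056 and 0.044 and did not pass.

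Of 14 genes of myelin lipid metabolism 3 were higher and 8 lower (57.1%, beside 32.9% of all genes), with a median of -0.26. The lower genes numbered 3 with 5 against 5 arrays, 4 without a filter on low values and 2 once the title number was a covariate, the higher ones 3 each time. Under the title number 14.8% of all probe sets were higher and 7.06% lower. ENPP2, the autotaxin that makes lysophosphatidic acid and is also strong in choroid plexus, lay at 10.94 to 11.25 (median 11.12) against 10.33 to 10.83 (median 10.74), a difference of 0.41 ± 0.087 with no overlap. PLD1, a phospholipase D, was higher by 0.63 ± 0.11 and ELOVL7, a fatty acid elongase, by 0.61 ± 0.13. PLA2G16, a phospholipase A, was lower by -0.36 ± 0.093. PSAP, the precursor of the saposins that help break down sphingolipids, was lower by -0.19 ± 0.071 (adjusted p = 0.0324). Without LR replicate 1, 3, 8 or 9 or HR replicate 1 or 2 PSAP no longer passed, at adjusted p of 0.0504 to 0.105. The count of 11 calls dropped to 5 without LR replicate 9 and to 6 without HR replicate 1.

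Among 11 transcription factors of the lineage 2 were higher and 3 lower (18.2% and 27.3%, beside 27.7% and 32.9% of all genes). SOX10, which drives myelin genes in oligodendrocytes, lay at 7.64 to 7.87 (median 7.78) in the high-score arrays and at 7.82 to 8.27 (median 8.01) in the low-score arrays, a difference of -0.25 ± 0.081 (adjusted p = 0.0172). The sets met but hardly overlapped. ST18 and YY1 were higher by 0.39 ± 0.093 and 0.40 ± 0.098, although the 3 other YY1 probe sets ran from -0.25 to 0.18. CARHSP1 was lower by -0.30 ± 0.11, and it lost its call without LR replicate 9, HR replicate 1 or HR replicate 3 (adjusted p 0.0657 to 0.081). OLIG1, the brightest factor, differed by -0.074 ± 0.13, and SOX8 by -0.17 ± 0.073 (adjusted p = 0.633 and 0.0607). Leaving out LR replicate 6 put SOX8 past the threshold at -0.19 (adjusted p = 0.0395). The 5 calls were 3 without LR replicate 9 or HR replicate 1.

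The longest list, enzymes, cytoskeleton and signalling genes of oligodendrocytes, held 9 higher and 12 lower genes among 35. These shares, 25.7% and 34.3%, stood beside 27.7% and 32.9% of all genes. SLC44A1, a choline transporter, lay at 10.41 to 10.89 (median 10.65) against 9.73 to 10.27 (median 10.15), a difference of 0.49 ± 0.094 with no overlap. EVI2A was higher by 0.91 ± 0.19, LPAR1, a receptor for the product of ENPP2, by 0.47 ± 0.10 and TMEM144 by 0.42 ± 0.092. TF, the iron carrier transferrin and the brightest gene of the list, lay at 11.91 to 12.22 (median 12.03) against 11.88 to 12.18 (median 12.04), and its difference of 0.045 ± 0.074 did not pass (adjusted p = 0.607). PTGDS, a prostaglandin D synthase of oligodendrocytes and meninges, was lower by -0.23 ± 0.090 (adjusted p = 0.0364). That call was lost without any 1 of 8 arrays, LR replicates 1, 2 and 8 and HR replicates 1, 2, 3, 5 and 6 (adjusted p 0.0503 to 0.14). Without HR replicate 1 the list had 13 calls in place of 21.

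Markers of oligodendrocyte precursors and new oligodendrocytes also split, with 6 higher and 9 lower of 21 (28.6% and 42.9%, beside 27.7% and 32.9% of all genes). VCAN, a matrix proteoglycan, lay at 8.56 to 9.39 (median 8.92) against 7.06 to 8.45 (median 7.92), a difference of 1.02 ± 0.19 (adjusted p = 0.000928). PTPRZ1, a receptor phosphatase, was higher by 0.65 ± 0.13, ITPR2, a calcium release channel of the endoplasmic reticulum, by 0.86 ± 0.19, and PDGFRA, the growth factor receptor that marks precursors, by 0.36 ± 0.081. In VCAN, PTPRZ1 and PDGFRA the sets did not overlap. In the whole list 5 of 21 genes (23.8%) did not overlap, beside 16.5% of all probe sets. The genes named from this list, picked by smallest p, were all higher, while the list median was -0.18 with values down to -0.62. Cholesterol synthesis, on which myelin growth draws, had 3 higher and 6 lower of 16. HMGCS1, which makes the substrate of the rate-limiting step, lay at 10.86 to 11.48 (median 11.23) against 9.87 to 10.59 (median 10.34), a difference of 0.83 ± 0.11 (adjusted p = 0.000245). CYP51A1, a sterol demethylase, was higher by 0.60 ± 0.096, while FDPS and MVD of the same pathway were lower by -0.34 ± 0.087 and -0.35 ± 0.087.

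Both lists of axonal genes had more higher than lower members. At the node of Ranvier and its neighbouring paranode and juxtaparanode, 10 of 17 genes were higher (58.8%) and 1 was lower (5.88%), beside 27.7% and 32.9% of all genes, with a median of 0.28. DLG2, a scaffold of the juxtaparanode and the synapse, lay at 10.06 to 10.88 (median 10.45) in the high-score arrays and at 9.02 to 9.70 (median 9.49) in the low-score arrays, a difference of 0.90 ± 0.12 (adjusted p = 0.000245). LGI1, a secreted neuronal protein, was higher by 0.72 ± 0.11, CNTN1, the axonal contactin of the paranode, by 0.57 ± 0.14 and EPB41L3, a cytoskeletal linker of the paranode, by 0.30 ± 0.069. None of these 4 had overlapping sets, and the list mean ran from 9.31 to 9.62 against 9.09 to 9.29. Of the neurofilament and axonal cytoskeleton genes 7 of 11 were higher (63.6%) and 1 lower, with a median of 0.28. NEFM, the medium neurofilament chain, lay at 9.25 to 10.37 (median 9.85) against 8.58 to 9.46 (median 8.97), a difference of 0.69 ± 0.15. KIF5C, a kinesin heavy chain, was higher by 0.72 ± 0.18, STMN2, a microtubule regulator of growing axons, by 0.35 ± 0.078 and NEFL, the light chain, by 0.28 ± 0.063. Once the title number entered as a covariate, 4 genes of each list were higher and 0 lower. Under that setting 14.8% of all probe sets were higher and 7.06% lower. DLG2, CNTN1, EPB41L3 and KIF5C are longer than 99.7 kb, while LGI1, NEFM, STMN2 and NEFL are shorter. Among all genes from 99.7 kb, 45.8% were higher and 14.3% lower. The part of gene length in both lists was not tested.

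Neuronal markers as a whole did not share that direction. Genes of hippocampal pyramidal and dentate granule cells were measured above the filter on the arrays, 10 of 12 and 6 of 10 listed, as were genes of other brain regions. Of 8 general markers 3 were higher and 4 lower, the calcium sensor VSNL1 and the synaptic vesicle protein SYT1 by 0.35 ± 0.075 and 0.33 ± 0.078, the NMDA receptor subunit GRIN1 and the synapsin SYN1 by -0.33 ± 0.088 and -0.29 ± 0.087. Of 10 pyramidal cell genes 1 was higher and 5 were lower, beside 27.7% and 32.9% of all genes. WFS1, which marks one hippocampal field in rodents, lay at 8.15 to 8.68 (median 8.56) against 8.87 to 9.49 (median 8.98), a difference of -0.61 ± 0.12 with no overlap. NEUROD6, another pyramidal cell factor, was higher by 0.49 ± 0.12, and MPPED1 and BCL11B were lower by -0.36 ± 0.093 and -0.23 ± 0.064. The 4 other BCL11B probe sets ran from -0.02 to 0.30. Without a filter on low values 4 of 9 dentate granule cell genes were higher and 0 lower, with a median of 0.027. Of the 6 that passed the filter 4 were higher and 1 lower, beside 27.7% and 32.9% of all genes, STXBP6 by 0.42 ± 0.082 and DOCK10 by 0.78 ± 0.17. DOCK10 also stands on the oligodendrocyte list.

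Interneuron genes gave 2 higher and 3 lower of 12, beside 27.7% and 32.9% of all genes. The lower genes numbered 6 without the coping term and 6 with the score as a continuous term. GAD2, which makes GABA, lay at 8.70 to 9.32 (median 9.04) against 8.34 to 8.80 (median 8.60), a difference of 0.40 ± 0.092 (adjusted p = 0.00309). SLC32A1, which loads GABA into vesicles, lay at 7.03 to 7.73 (median 7.62) against 7.82 to 8.21 (median 7.99), a difference of -0.42 ± 0.11 (adjusted p = 0.00631). NPY, a neuropeptide, and DLX2, a homeobox factor, were lower by -0.38 ± 0.10 and -0.35 ± 0.11. Genes of neighbouring brain regions did not set the arrays apart in 1 direction either. Neocortical layer genes had 1 higher and 2 lower of 6 (RORB 0.60 ± 0.12, CTGF -0.35 ± 0.13), thalamic genes 0 higher and 2 lower of 9 (RGS16 -0.34 ± 0.083, GBX2 -0.30 ± 0.081), and striatal and amygdala genes 2 and 2 of 6 (PENK -0.38 ± 0.082, DRD2 -0.31 ± 0.090). CTGF lost its call without LR replicate 1 or 9 or HR replicate 1 or 3 (adjusted p 0.0507 to 0.114), and the 3 neocortical calls were 1 without any 1 of these arrays.

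Astrocyte genes had 5 higher and 7 lower of 17 (29.4% and 41.2%, beside 27.7% and 32.9% of all genes). GJA1, the main gap junction protein of astrocytes, lay at 11.80 to 12.25 (median 12.10) against 11.14 to 11.57 (median 11.24), a difference of 0.65 ± 0.089 (adjusted p = 0.000265). The glutamate transporter SLC1A3, the bicarbonate transporter SLC4A4 and the water channel AQP4 were higher by 0.45 ± 0.075, 0.65 ± 0.11 and 0.52 ± 0.11. None of these 4 genes had overlapping sets at its brightest probe set. In the whole list 4 of 17 genes (23.5%) did not overlap, beside 16.5% of all probe sets. The 4 named genes, picked by smallest p, were all higher, while the list median was -0.15 with values down to -0.58. The 3 other SLC4A4 probe sets ran from 0.08 to 1.102, and the astrocyte list mean overlapped, at 10.18 to 10.36 against 10.19 to 10.34. Microglia genes had 1 higher and 6 lower of 10, beside 27.7% and 32.9% of all genes, with a median of -0.31. TREM2, a lipid receptor of microglia, lay at 8.18 to 8.70 (median 8.43) against 8.71 to 9.01 (median 8.82), a difference of -0.44 ± 0.091, and its adaptor TYROBP differed by -0.47 ± 0.094. The complement genes C1QC and C1QA were lower by -0.55 ± 0.13 and -0.54 ± 0.13. The list mean overlapped, at 8.16 to 8.58 against 8.49 to 8.78. When the title number was added as a covariate 3 microglia genes were lower and 0 higher, beside 7.06% and 14.8% of all probe sets. TREM2, TYROBP, C1QC and C1QA are all shorter than 8.6 kb. Among all genes up to 8.6 kb, 6.52% were higher and 53.7% lower. The part of gene length in the microglia list was not tested.

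Vascular and ventricular markers had calls in both directions, as did all genes, of which 27.7% were higher and 32.9% lower. In the endothelium 4 were higher and 6 lower of 14 (28.6% and 42.9%). The transporters ABCB1 and SLCO1A2 were higher by 0.56 ± 0.078 and 1.03 ± 0.18. The lipid transporter MFSD2A and the clotting factor VWF were lower by -0.47 ± 0.086 and -0.48 ± 0.11. The 2 other SLCO1A2 probe sets differed by 0.98 and -0.26, the latter without passing. Pericyte and smooth muscle genes had 2 higher and 1 lower of 7 (RGS5 0.85 ± 0.15, ABCC9 0.65 ± 0.14), and meningeal genes 2 and 1 of 9 (LUM 0.68 ± 0.12, OGN 0.64 ± 0.17), the latter with 5 calls in place of 3 without LR replicate 2. With the score as a continuous term over 20 arrays these were 2 higher and 4 lower of 7 pericyte and 2 higher and 5 lower of 9 meningeal genes. Ependymal genes had 1 higher and 3 lower of 6, where the ciliary gene CCDC39 was higher by 0.80 ± 0.16 and FOXJ1, the factor that switches cilia genes on, lower by -0.35 ± 0.083. Choroid plexus genes had 2 higher and 2 lower of 9, with CAB39L at 0.67 ± 0.12, a median of -0.26 and a range down to -1.61. The 2 lower calls were 0 for 5 against 5 arrays and without a filter on low values, and 2 calls in place of 4 were made without HR replicate 1. Of 5 lymphocyte genes CD4 was lower by -0.36 ± 0.076 and CD3G higher by 0.31 ± 0.12, the latter not without LR replicate 1, 7 or 9 or HR replicate 1, 2 or 5 (adjusted p 0.0504 to 0.152), so that 1 call was left without LR replicate 1 or 9 or HR replicate 1, 2 or 5. The blood genes HBB and ALAS2 differed by -0.18 ± 0.21 and -0.15 ± 0.27 and did not pass.

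**Figure D4:**
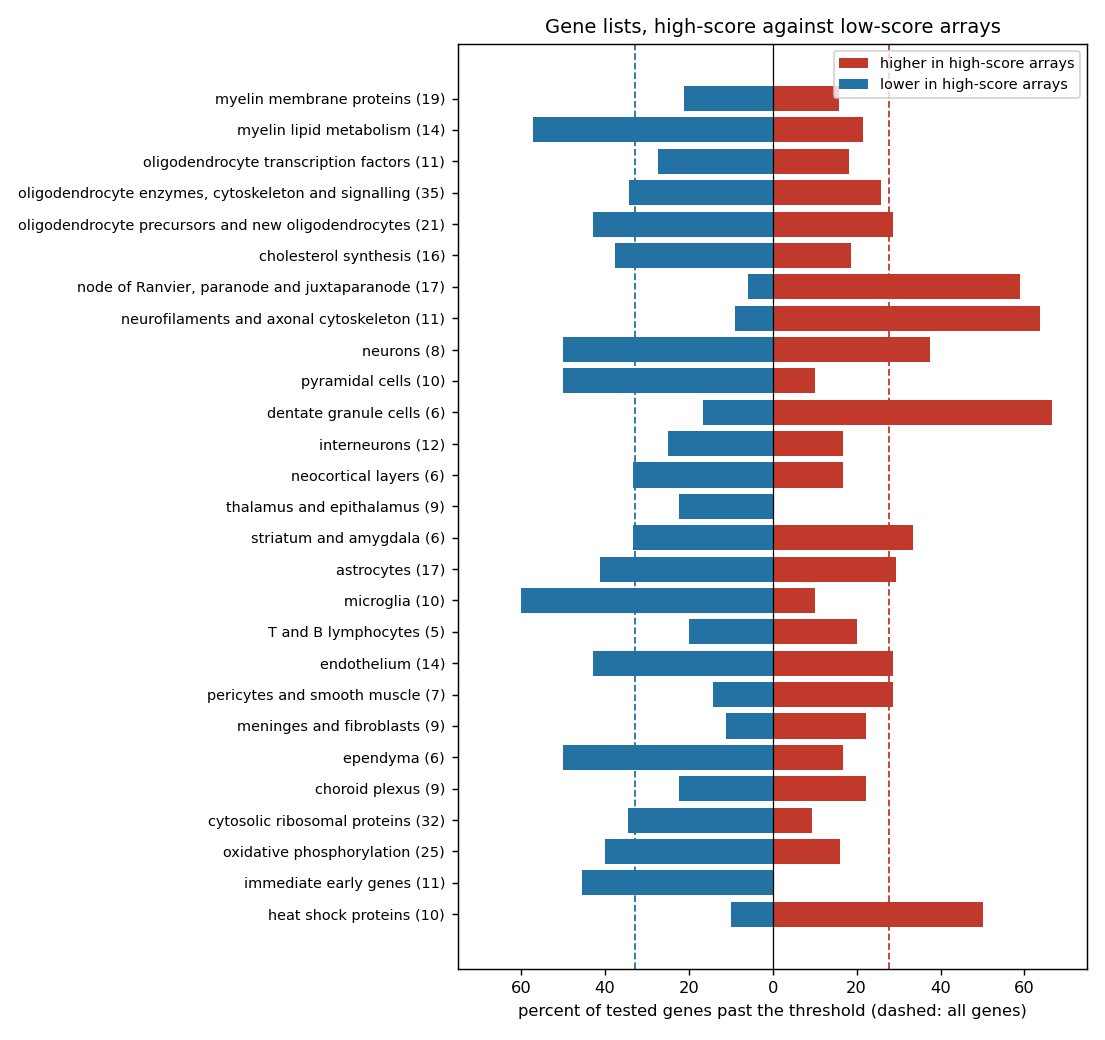
Percent of tested genes of each list that were higher (right) or lower (left) in the high-score arrays at an adjusted p below 0.05, with the number of tested genes in brackets. Dashed lines mark all genes, 27.7% higher and 32.9% lower; the axon, node, dentate and heat shock lists reach farthest to the right, and microglia and myelin lipid metabolism to the left.

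Heat shock proteins had 5 higher and 1 lower of 10 (50.0% higher, beside 27.7% of all genes), with a median of 0.21. DNAJA1, a cochaperone, lay at 10.91 to 11.43 (median 11.08) against 10.25 to 10.81 (median 10.40), a difference of 0.62 ± 0.10, and the chaperones HSPH1, HSP90AA1 and HSPA5 were higher by 0.60 ± 0.16, 0.44 ± 0.11 and 0.30 ± 0.079. The list mean ran from 10.36 to 10.52 in the high-score and from 9.97 to 10.31 in the low-score arrays. Immediate early genes, which neurons switch on within minutes of activity, had 0 higher and 5 lower of 11 (45.5% lower, beside 32.9% of all genes), with FOS at -0.44 ± 0.11, NR4A1 at -0.42 ± 0.12, EGR4 at -0.38 ± 0.12 and JUNB at -0.35 ± 0.086. Their list mean was lower in every high-score array, at 7.21 to 7.48 against 7.53 to 7.74. Without HR replicate 1 that count was 3, and EGR4 no longer passed (adjusted p = 0.0628). FOS, NR4A1, EGR4 and JUNB are all shorter than 8.6 kb. Among all genes up to 8.6 kb, 6.52% were higher and 53.7% lower. The part of gene length in the immediate early list was not tested. Cytosolic ribosomal proteins had 3 higher and 11 lower of 32, or 9.38% and 34.4% beside 27.7% and 32.9% of all genes (RPL5 0.31 ± 0.072, RPLP2 -0.39 ± 0.086), and oxidative phosphorylation 4 higher and 10 lower of 25, or 16.0% and 40.0% (NDUFS1 0.36 ± 0.076, NDUFS7 -0.37 ± 0.088). In both lists genes of 1 protein complex ran in both directions.

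Control probes differed by base composition, and genes by length. Control probe sets without a pig target differed by -0.02 to -0.08 log2 where they held 3 to 10 G or C bases among 25. From 15 to 24 G or C bases the difference was -0.38 to -0.43, lower in the high-score arrays, and at 25 it was -0.35. Among 10279 genes with a genomic length in the Sscrofa11.1 RefSeq annotation (99.7% of those tested), the shortest of 5 equal groups, up to 8.6 kb, had 6.52% higher and 53.7% lower with a median of -0.25. The longest group, from 99.7 kb, had 45.8% higher and 14.3% lower with a median of 0.18. From the shortest to the longest group the 79 oligodendrocyte genes had 2 higher and 9 lower of 17, 0 and 7 of 15, 2 and 5 of 12, 3 and 4 of 14, and 10 and 2 of 21. In the 3 groups between the ends 15.8%, 29.3% and 41.4% of all genes were higher and 43.2%, 32.0% and 21.2% lower. Of 490 probe sets named for microRNAs 6 were higher (1.22%) and 187 lower (38.2%), beside 25.7% and 31.1% of all probe sets. The part of base composition and length in the differences of single genes was not tested.

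**Figure D5:**
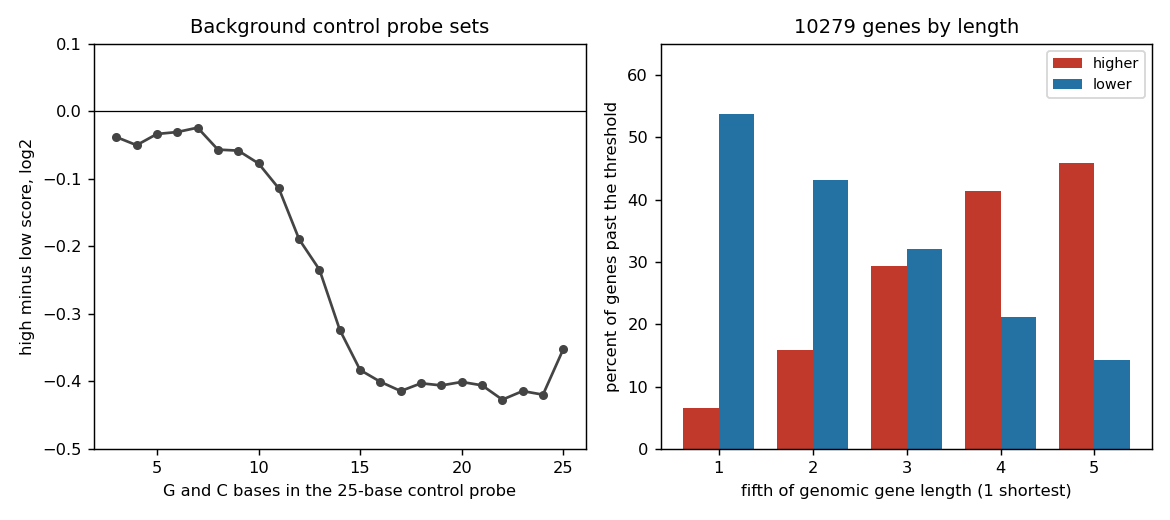
Left, difference between high-score and low-score arrays (log2) of background control probe sets against the number of G and C bases in the probe. Right, percent of genes higher (red) and lower (blue) at an adjusted p below 0.05 in each of 5 groups of genes by genomic length (1 shortest); the share of higher genes climbs from 6.52% to 45.8% from the shortest to the longest genes.

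The comparison was repeated within each coping pattern, where fewer arrays stood on each side. Within the 6 HR arrays alone 3675 probe sets passed (2956 higher, 719 lower), and within the 8 LR arrays alone 4654 (3330 higher, 1324 lower). Of the 79 oligodendrocyte genes 8 were higher and 0 lower in HR, and 11 higher and 0 lower in LR. The share of 10.1% in HR stood beside 12.4% of all probe sets, and that of 13.9% in LR beside 3330 of 23850. Whether the slope of a gene on the score differed between HR and LR was tested over all 20 arrays, and 1 of 23850 probe sets passed, SNOWBALL_023500_st, which carries no gene symbol, with a slope of -1.53 in HR and 0.54 in LR (adjusted p = 0.0115). At an unadjusted p below 0.05 there were 1414 such probe sets, where 1192 are expected if no slope differs.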

How the data were processed

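The authors deposited log2 values per probe set for 20 Affymetrix Snowball arrays, 1 per pig, made by robust multichip averaging in Affymetrix Expression Console after scanning with GCOS 1.1.1, per their methods and the submitters' processing notes. This normalisation brings the arrays to a common probe intensity distribution before probe sets are summarised, so a shift common to most genes can be reduced. Values ran from 0.687 to 14.4 and array medians from 5.48 to 5.57. Arrays carry no read depth, and their number limits the precision. With 1 array per pig, p-values rest on the spread between arrays, in which animal and sample handling cannot be told apart. The sets were picked by a score from the same arrays, so p-values do not compare independently defined groups of animals.

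The score used the brightest probe set of each of 6 genes. The 123 control probe sets and the 11 probe sets of the score genes were left out, and probe sets with a mean above 5.53, the median of all 47722 others, were kept, which left 23850. Of these 16467 carried 1 gene symbol (10307 genes) and 7383 none, by the platform annotation. 0 sample columns were unused. A gene was taken at its brightest probe set except among those with the smallest p. Differences were fitted with limma 3.58.1 in R 4.3.3, with Benjamini-Hochberg adjustment over all 23850 probe sets, and single measures were compared with permutation tests in SciPy (exact for 7 against 7 arrays, otherwise 100000 resamples). On simulated data for the high-score against low-score comparison over 23850 probe sets, 62 of 100 changes of 0.5 log2 and 99 of 100 of 1 log2 were recovered with 1 false call. In the real comparison 13563 probe sets passed, far more than were planted, so these rates do not describe its calls.

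The score genes, the sets and the 28 gene lists were chosen with earlier results of these data known. Named genes are the 12 with the smallest p in each direction, in each list the 4 genes of smallest p (for side lists the first 2), and the 2 brightest of each oligodendrocyte list; others are said to have been chosen afterwards. Alternatives covered the set size, the score, covariates, the filter, weights, centring and each array left out.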

Additional observations from a re-analysis of the deposited data

Results flagged for a closer look

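In 258 sets of values of named genes, the score and array measures, 1 array stood apart from the other arrays of its set in 17 cases (6.59%, where chance flags about 1 in 20). The sets were cut by the score, and many of these values follow the score and each other. The flags are therefore not separate pieces of evidence, and the chance rate is only a rough guide. HR replicate 5, the array with the highest score, accounted for 11 of them. In the high-score set it was farthest from the rest in the score (10.94, next 10.63), the first principal component (65.3, next 30.2), ERMN (10.6, next 9.83), OMG (11.4, next 11.0), SLCO1A2 (8.34, next 7.55), CCDC39 (8.79, next 7.87) and DNAJA1 (11.4, next 11.1) at the upper end. At the lower end it stood apart in SLC32A1 (7.03, next 7.54), PENK (7.76, next 7.99), MFSD2A (6.99, next 7.24) and FOXJ1 (7.15, next 7.32). LR replicate 1, which also carries the lowest title number (as LR replicate 7 does among the high-score arrays), stood apart at the lower end of the low-score set in ENPP2 (10.3, next 10.7), SLCO1A2 (5.67, next 6.23) and MOBP (11.3, next 11.5). With both of these arrays left out, an alternative chosen after seeing the data, 10995 probe sets passed.

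Single flags fell on LR replicate 4 for PRKCZ (5.71, next 5.98), on HR replicate 3 for ST18 (7.53, next 7.23) and on LR replicate 8 for NDUFS1 (9.16, next 9.01). The probe set SNOWBALL_023500_st was flagged because its slope on the score differed between coping patterns, by -2.07 in HR minus LR, by the test of the difference itself.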

How the results depend on the processing

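In place of 13563 probe sets (56.9% of 23850), 7699 passed with the filter at the 75th percentile (64.6% of 11922) and 6477 with 1 probe set per gene (62.8% of 10307). Counts were 5207 with the title number as a covariate, 3675 in HR arrays only and 4654 in LR arrays only. They were 0 with the score of scaled genes, the first principal component as a covariate or the level of the GC-rich background probes as one. Fewer probe sets are tested under the first 2 alternatives, where the share called was larger. Fewer arrays are used within HR or LR, while for the others the cause was not tested. Leaving out 1 array gave 10439 (without HR replicate 1) to 14165. For the oligodendrocyte lists, 44 calls became 18 with the title number, 8 in HR, 11 in LR, 0 with the scaled score, the first component or the GC-rich level, and 28 to 46 without 1 array. With each array centred on the median of the tested probe sets, an alternative chosen after seeing the data, 14468 passed, of which 40.8% were higher in place of 45.2%; the median of all probe sets was then -0.14. With the title number 14.8% of all probe sets were higher and 7.06% lower, in place of 25.7% and 31.1%. As over all probe sets, more genes were then higher than lower, where the opposite held before, in several lists. These were enzymes and signalling of oligodendrocytes (7 and 1), precursors (4 and 1), astrocytes (4 and 1), endothelium (3 and 2), transcription factors of the lineage (2 and 0) and cholesterol synthesis (2 and 0). Without a filter the general neuronal markers had 3 higher and 2 lower, the lineage factors 2 and 1, and the blood genes 0 and 3 of 8. With the title number 67.7% of calls were higher, in HR 80.4% and in LR 71.6%. The 1 probe set whose slope differed between coping patterns became 0 without a filter (2714 at an unadjusted p below 0.05 of 47711).

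With the first component as a covariate 34 of 117 named genes changed sign and 80 others lost their call; those that changed sign were OMG -0.036, TMEM88B 0.029, MBP 0.040, ELOVL7 -0.23, PSAP 0.0075, CARHSP1 0.23, EVI2A -0.24, PTGDS 0.14, VCAN -0.11, PTPRZ1 -0.17, ITPR2 -0.40, FDPS 0.095, CNTN1 -0.23, NEFM -0.21, KIF5C -0.47, SYT1 -0.032, NEUROD6 -0.25, DOCK10 -0.32, SLC32A1 0.14, RORB -0.052, CTGF 0.36, RGS16 0.00078, AQP4 -0.080, C1QA 0.064, SLCO1A2 -0.22, MFSD2A 0.0081, RGS5 -0.10, ABCC9 -0.00059, OGN -0.40, CCDC39 -0.16, HBB 0.12, ALAS2 0.26, EGR4 0.28 and HSPH1 -0.38 log2. With the GC-rich level CARHSP1 was 0.042, SLC32A1 0.011, CTGF 0.0026, CD3G -0.19 and HBB 0.14, and with the title number TF was -0.015 and HBB 0.12. OLIG1 was 0.024 with the scaled score and 0.0094 in HR. MBP, near 0 throughout, was 0.0018 without the coping term, 0.010 for 5 against 5 arrays, 0.0077 for 10 against 10, 0.019 with a continuous score, 0.034 with the scaled score, and between -0.022 and 0.0078 without 1 array (0.0026, 0.0042, 0.0025 and 0.0078 without LR replicates 2, 3, 8 and 9, 0.0065 without HR replicate 2). For these sign changes the cause was not tested. The first component was built from the tested probe sets, the named genes among them, so changes under it decide nothing about single genes. No paired analysis was possible because replicate numbers follow accession order only.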
